A study of Homo sapiens with 8 samples.

Results

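The fibroblast growth factor (FGF) signalling genes of D283-OMO cells were examined before and after induction of OMOMYC. They are the 42 protein-coding genes whose symbol is that of an FGF ligand, an FGF receptor (FGFR1 to FGFR4, FGFRL1), a klotho co-receptor (KL, KLB), or a Sprouty (SPRY), Spred, PEA3-type ETS (ETV1, ETV4, ETV5) or dual-specificity phosphatase (DUSP4 to DUSP6) gene. The count files list 60668 entries, of which 19916 are protein-coding genes. The members comprise 15 paracrine ligands, 3 endocrine ligands, 4 FGF homologous factors, 5 receptors, 2 klotho co-receptors and 13 feedback and target genes of the pathway. D283 Med is a medulloblastoma-derived cell line with high MYC levels, and D283-OMO is its derivative carrying a lentiviral, doxycycline (DOX)-inducible, Flag-tagged OMOMYC transgene, a mini-protein that acts as a dominant negative of MYC. PolyA+ RNA of 4 untreated cultures (OMO) was compared with that of 4 cultures given DOX at 0.25 µg/mL for 72 h (OMO+DOX). Both groups carry the transgene, and no DOX-treated cells without it were sequenced among these 8 libraries, so effects of OMOMYC and of DOX itself cannot be told apart here.

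FGFs are secreted ligands that bind receptor tyrosine kinases together with heparan sulfate, while the endocrine FGFs use a klotho protein as co-receptor. The activated receptor passes the signal through adaptors to RAS and the kinase ERK. ERK signalling induces the PEA3 ETS factors as well as Sprouty, Spred and DUSP proteins, which damp the same cascade, and RNA of these genes is widely used as a readout of it. In the developing brain, FGF ligands pattern the midbrain and the cerebellum.

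Libraries held between 38390696 and 54020506 RSEM expected counts. OTX2, a medulloblastoma transcription factor, stood at 1049 ± 17.4 CPM (SD, n = 4) in OMO and 510 ± 1.79 CPM in OMO+DOX libraries, and NEUROD1, a factor of neuronal differentiation, at 94.4 ± 3.59 and 20.2 ± 0.807 CPM. Of the other 6 neural markers, SYP and NCAM1 were lower and TUBB3 and MAP2 higher at an adjusted p below 0.05 (edgeR), MAP2 going from 1.95 ± 0.322 to 14.7 ± 0.924 CPM, while STMN2 was under 1 CPM and ELAVL4 at 0. Of the known MYC targets, CAD went from 162 ± 4.07 to 116 ± 4.75 CPM and NCL from 1554 ± 58.6 to 1145 ± 5.73 CPM (n = 4 each), while MYC RNA went from 939 ± 75.6 to 1123 ± 56.8 CPM, with overlap between the groups. OMOMYC derives from MYC, so the MYC value may include transgene reads. Immune markers summed to at most 1.32 CPM and epithelial markers to at most 0.797 CPM in any library, each gene being under 1 CPM. The 5 fibroblast markers summed to between 35.1 and 37.6 CPM in OMO and to between 55.4 and 68.7 CPM in OMO+DOX libraries, of which PDGFRB alone was called higher, from 13.6 ± 0.466 to 40.4 ± 4.49 CPM (n = 4). COL1A1 stood at 22.1 ± 0.613 and 23.4 ± 1.81 CPM with overlap, and COL1A2, DCN and LUM were under 1 CPM, the first and the second with every treated library below every untreated one. Endothelial markers summed to between 3.07 and 4.06 CPM and to between 5.38 and 6.15 CPM, and their genes went in both directions. CDH5, at 0 in every OMO library, stood at 1.85 ± 0.237 CPM (n = 4) in OMO+DOX libraries and KDR at 0.348 ± 0.138 and 2.74 ± 0.238 CPM, whereas VWF fell from 3.26 ± 0.332 to 1.24 ± 0.184 CPM and PECAM1 was under 1 CPM. The astrocyte markers summed to between 8.11 and 11.4 CPM and to between 6.63 and 8.97 CPM. The part of these markers in the results was not tested.

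In OMO+DOX cells the FGF genes changed in level and in make-up. FGF18, nearly absent from untreated cells, became the member with the highest RNA level per length, and FGFR1 rose 5.65-fold while FGFR2, the receptor gene with the highest level per length in untreated cells, fell to 42.9% of its level. ETV4, ETV5, SPRY4, SPRY2, SPRED3 and DUSP6 rose by between 2.57-fold and 8.04-fold. The neuronal factor FGF13 fell to 27.2%. In bulk RNA, a change in the share of cells that express a gene and a change in RNA per cell cannot be told apart.

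Of the 42 members, 24 had more than 1 CPM in at least 4 libraries and were tested, and 18 were not. All 24 had an adjusted p below 0.05 (edgeR quasi-likelihood test, adjusted over 15222 genes), 20 higher and 4 lower with DOX, where 76.6% of all genes tested did so, 38.5% higher and 38.1% lower. At an absolute log2 fold change (log2FC) above 1 as well, 14 members were called, 12 higher and 2 lower, against 20.9% of all genes, 11.0% higher and 9.81% lower. At the study's thresholds (FDR below 0.001 and absolute log2FC above 2), 7 members were called, all higher, against 7.12% of all genes, 4.38% higher and 2.75% lower. The study's methods name an FDR below 0.001, while its results name one below 0.01. FGF18 and FGF5 passed the filter through OMO+DOX libraries alone and therefore had to differ. The groups did not overlap for 21 of the 24, 18 higher and 3 lower, against 71.7% of all genes, 36.3% higher and 35.4% lower. The median log2FC of the members tested was 1.04, beside 0.01 for all genes tested.

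**Figure D1:**
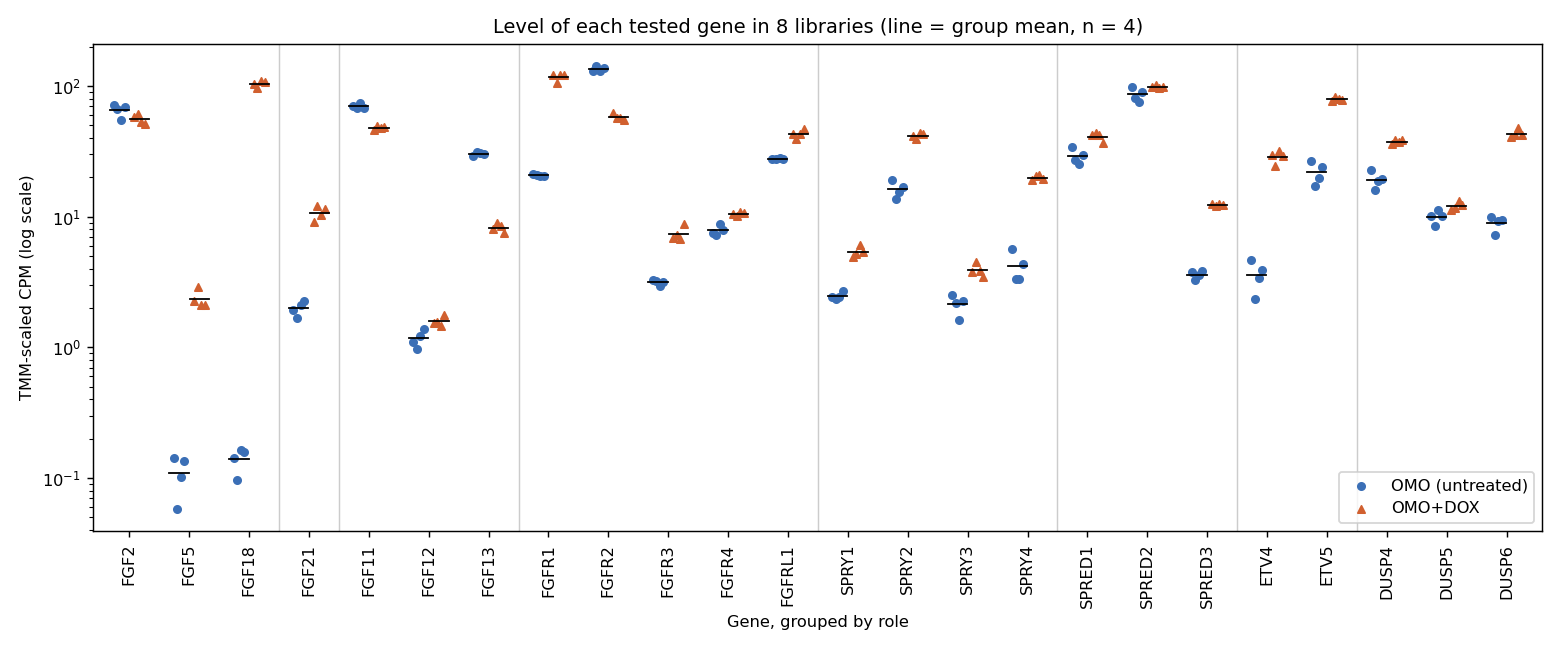
TMM-scaled CPM (log axis) of the 24 tested members in each library, grouped by role, with OMO libraries as circles, OMO+DOX libraries as triangles and group means (n = 4) as lines. FGF18 moves from between 0.0968 and 0.163 CPM to between 96.1 and 110 CPM, and the groups of FGF2, SPRED2 and DUSP5 overlap.

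Among the 4 tested ligands that are secreted, FGF18 and FGF5 had the largest changes. Their promoters are shown because these genes had the largest changes at the study's thresholds and because MYC and its partner MAX bind the E-box CACGTG. The sequences are the 250 bases before the RefSeq start (GRCh38.p14, plus strand), for FGF18 at chr5:171419397-171419646 and for FGF5, at the outer of its 2 listed starts, at chr4:80266338-80266587, with each CG dinucleotide in capitals.
FGF18: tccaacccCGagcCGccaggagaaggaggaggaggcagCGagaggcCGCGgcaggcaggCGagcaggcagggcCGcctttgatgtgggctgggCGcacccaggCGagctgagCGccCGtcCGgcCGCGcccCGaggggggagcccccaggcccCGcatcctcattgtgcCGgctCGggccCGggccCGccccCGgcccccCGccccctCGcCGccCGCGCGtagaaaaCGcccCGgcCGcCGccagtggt
FGF5: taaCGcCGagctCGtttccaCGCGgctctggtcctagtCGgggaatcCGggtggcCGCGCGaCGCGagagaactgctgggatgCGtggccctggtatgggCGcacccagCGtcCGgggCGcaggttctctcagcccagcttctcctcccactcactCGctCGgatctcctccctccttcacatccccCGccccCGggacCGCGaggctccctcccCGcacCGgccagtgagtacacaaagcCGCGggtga
The FGF18 window held 31 CG dinucleotides and the FGF5 window 27, counts that 10.9% and 17.7% of the 35116 RefSeq windows of this length reach, where the median is 11. Neither window held CACGTG, which reads the same on both strands and lies in 6.34% of all windows. Windows were read for 5 of the 7 members at the study's thresholds, but not for FGFR1 and ETV4. In the 250 bases read, none of these 5 held CACGTG. Among 30 members whose windows were read, it lay in 5 of 60 windows (8.33%), which belong to ETV1, FGF14, FGFR4 and FGFRL1. These windows are not independent, as the FGF14 windows that held it overlap at the same site and SPRY3 windows were read on X and Y. The ETS consensus CCGGAAGT, searched on both strands, lay in 3.42% of all windows and in none of the members' windows.

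FGF18 (ENSG00000156427.8, chr5:171419656-171457623, plus strand of GRCh38) encodes a paracrine ligand known from skeletal and lung development. It stood at 0.143, 0.0968, 0.163 and 0.157 CPM in OMO replicates 1 to 4 and at 103, 96.1, 110 and 107 CPM in OMO+DOX replicates 1 to 4. The lowest treated library thus lay far above the highest untreated one. The pooled counts, 27 and 19564, gave a 752-fold rise, with an exact 95% interval of 517 to 1141 that covers counting error only. The log2FC was 9.52 (edgeR, adjusted p = 7.92e-14), and with any 1 library left out it lay between 9.37 and 9.60. FGF18 passed the filter through OMO+DOX libraries alone and had to differ, so this p-value is no independent support. Per kb of exon, its level of 52.4 ± 2.95 CPM (SD, n = 4) exceeded that of every other member in OMO+DOX cells, SPRED2 being next at 19.1 ± 0.416, with both measures of gene length.

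FGF5 (ENSG00000138675.16, chr4:80266599-80336680), a ligand best known for ending hair growth, was a low-level gene in both conditions. Its OMO libraries gave 0.143, 0.0581, 0.102 and 0.135 CPM and its OMO+DOX libraries 2.27, 2.89, 2.11 and 2.11 CPM. All treated libraries were above all untreated ones, with pooled counts of 21 and 435, a 21.5-fold rise (exact 95% interval 13.9 to 35.1) and a log2FC of 4.40 (edgeR, adjusted p = 6.60e-09). FGF5 too passed the filter through OMO+DOX libraries alone and had to differ, so its p-value is no independent support. It shares 136 exonic bases with CFAP299 on the same strand.

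FGF21 (ENSG00000105550.10, chr19:48755559-48758333), a metabolic hormone of the endocrine group, was the sole member of that group above the filter. It measured 1.94, 1.66, 2.09 and 2.26 CPM in OMO and 9.07, 12.1, 10.3 and 11.4 CPM in OMO+DOX libraries. The groups were apart, with a log2FC of 2.43 (standard error 0.12, edgeR, adjusted p = 4.72e-09). Its co-receptor gene KLB did not pass the filter and stood at 0.861 ± 0.0804 and 0.577 ± 0.124 CPM (SD, n = 4), every treated library lying below every untreated one. Pooled counts of KLB were 168 and 110, a ratio of 0.68 (exact 95% interval 0.529 to 0.869). KL, the co-receptor of FGF23, had 3 counts in all OMO and 14 in all OMO+DOX libraries, a ratio of 4.84 (exact 95% interval 1.35 to 26.3), but its groups overlapped. With no filter on low counts, edgeR gave KL an adjusted p of 0.0599 and KLB one of 0.027.

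FGF2 (ENSG00000138685.15, chr4:122826708-122898236), or basic FGF, was the paracrine ligand with the highest level per kb of exon in untreated cells, at 9.66 ± 1.07 CPM (SD, n = 4). It gave 71.6, 66.5, 55.1 and 68.7 CPM in OMO and 57.7, 61.1, 52.9 and 51.0 CPM in OMO+DOX libraries. OMO replicate 3 lay within the range of the treated libraries. The log2FC was -0.23 (standard error 0.08, edgeR, adjusted p = 0.0231), and the call was lost without OMO replicate 1 (adjusted p = 0.0533), without OMO+DOX replicate 3 (0.065) or 4 (0.0684), and with scaling to library size alone (log2FC -0.11, adjusted p = 0.29). FGF2 shares 804 exonic bases with NUDT6 on the opposite strand, and its expected counts were not whole in any library.

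The other 12 paracrine ligands were not tested. FGF3, FGF4 and FGF16 had no count in any library, as had the endocrine FGF19, and FGF6 and FGF20 had 2 counts and 1 count in all 8 libraries together. FGF10, a ligand that mesenchyme sends to epithelium through FGFR2, had 1 count in all OMO and 103 in all OMO+DOX libraries, a ratio of 106.9 (exact 95% interval 18.8 to 4262). FGF17, of the FGF8 subfamily active at the border of midbrain and hindbrain, went the other way, from 228 to 69 counts, a ratio of 0.314 (exact 95% interval 0.236 to 0.413), with every treated library below every untreated one. FGF9 had 2 and 31 counts, a ratio of 16.1 (exact 95% interval 4.09 to 138.7), and FGF1 had 1 and 12 counts, a ratio of 12.4 (exact 95% interval 1.84 to 532.3). For FGF7, FGF8 and FGF22, as for the endocrine FGF23, the exact interval of the ratio held 1 (for FGF22 from 0.707 to 1.34), so no difference was detectable at this depth. With no filter on low counts, edgeR gave FGF10 an adjusted p of 2.32e-10, FGF17 one of 2.00e-07, FGF9 one of 1.79e-04 and FGF1 one of 0.0194.

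FGF11 to FGF14, the FGF homologous factors, are not secreted and bind the tails of voltage-gated sodium channels in neurons. FGF13 (ENSG00000129682.16, chrX:138614731-139222777, minus strand), which also binds microtubules, gave 29.1, 31.2, 30.6 and 30.1 CPM in OMO and 7.97, 8.92, 8.47 and 7.55 CPM in OMO+DOX libraries. The groups were far apart relative to their spread, with a log2FC of -1.88 (standard error 0.06, edgeR, adjusted p = 1.07e-10). FGF11 (ENSG00000161958.11, chr17:7438273-7444937) gave 70.2, 67.8, 73.5 and 68.1 CPM in OMO and 45.9, 49.0, 47.9 and 48.3 CPM in OMO+DOX libraries. It fell too, by 0.55 on the log2 scale (standard error 0.05, edgeR, adjusted p = 4.04e-07). The same-strand entry AC113189.4 shares 75.0% of the FGF11 exon bases, and reads can be divided between them. Summed with this entry and AC113189.2, FGF11 went from 75.1 ± 2.49 to 51.5 ± 1.75 CPM (n = 4). FGF12 rose slightly, from 1.17 ± 0.179 to 1.58 ± 0.132 CPM, with a log2FC of 0.44 (edgeR, adjusted p = 0.0126), and the call was lost with no filter on low counts (adjusted p = 0.0502). FGF14 had 24 counts in all OMO and 13 in all OMO+DOX libraries.

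The receptor genes moved in opposite directions. FGFR1 (ENSG00000077782.20, chr8:38400215-38468834, minus strand), a receptor widely expressed in neural progenitors, gave 21.2, 21.0, 20.3 and 20.5 CPM in OMO and 122, 106, 122 and 120 CPM in OMO+DOX libraries. All treated libraries were over 5 times the untreated mean, and the log2FC was 2.50 (standard error 0.06, edgeR, adjusted p = 7.14e-12). FGFR2 (ENSG00000066468.22, chr10:121478334-121598458, minus strand) gave 131, 142, 129 and 137 CPM in OMO and 62.5, 57.1, 56.6 and 55.0 CPM in OMO+DOX libraries. It fell by 1.22 on the log2 scale (standard error 0.05, edgeR, adjusted p = 1.54e-09) with no overlap between the groups.

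FGFR3 and FGFR4 were lower in level than FGFR2 in both conditions, also per length. FGFR3 (chr4:1793293-1808872), a receptor that responds to FGF18, gave 3.29, 3.19, 2.93 and 3.16 CPM in OMO and 6.86, 7.25, 6.73 and 8.78 CPM in OMO+DOX libraries, a log2FC of 1.24 (standard error 0.10, edgeR, adjusted p = 4.19e-07). FGFR4 (chr5:177086886-177098144), the usual partner of KLB for FGF19, gave 7.49, 7.20, 8.84 and 7.87 CPM and 10.5, 10.0, 10.9 and 10.7 CPM, a log2FC of 0.42 (standard error 0.08, edgeR, adjusted p = 2.75e-04). FGFRL1 (chr4:1009936-1026897), a receptor without a kinase domain, gave 27.4, 27.4, 28.2 and 27.7 CPM and 42.5, 39.4, 43.1 and 46.7 CPM, a log2FC of 0.63 (standard error 0.05, edgeR, adjusted p = 5.93e-07). None of these receptors overlapped between the groups, while the rises of FGFR4 and FGFRL1 were small.

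Within each library, the level per kb of exon of FGFR1 to FGFR4 was also expressed as a share of their sum, which needs no scaling between libraries. FGFR2 held 82.5% ± 0.951 (SD, n = 4) of the sum in OMO and 38.5% ± 1.90 in OMO+DOX libraries, and FGFR1 6.96% ± 0.247 and 42.8% ± 1.49. FGFR3 went from 3.01% ± 0.148 to 7.72% ± 1.03 and FGFR4 from 7.55% ± 0.859 to 11.0% ± 0.342. The ratio of FGFR1 to FGFR2 ran from 0.0811 to 0.0888 in OMO and from 1.01 to 1.20 in OMO+DOX libraries. The sum itself was 21.6 ± 0.667 and 19.8 ± 0.783 CPM per kb. With the longest transcript as length, FGFR2 held 82.4% and 35.6% and FGFR1 8.93% and 50.8%. By that length the sum was 37.4 ± 1.17 and 37.1 ± 1.62 CPM per kb, with overlap between the groups. The files hold gene sums, so receptor splice forms, which decide ligand choice, were not analysed here.

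**Figure D2:**
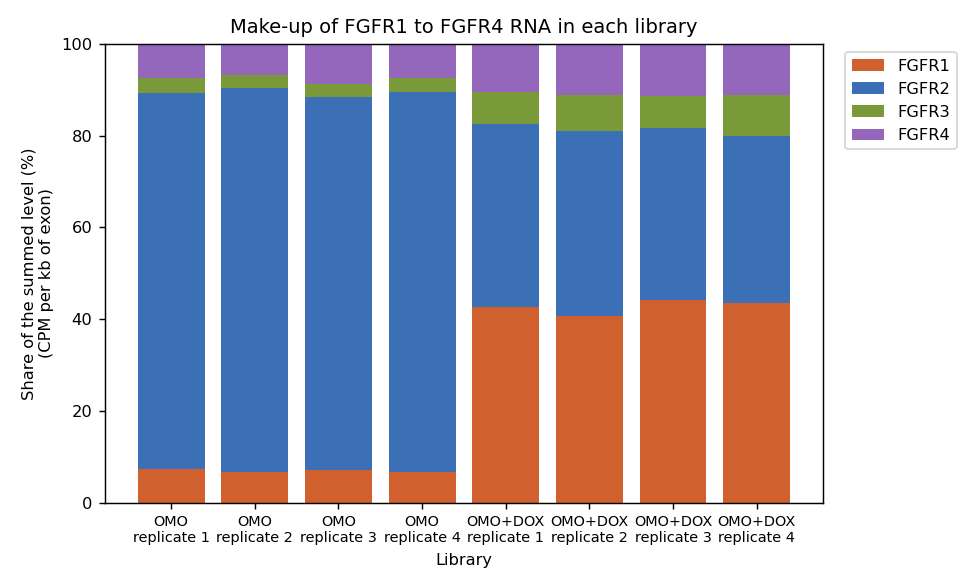
Share of each receptor gene in the summed level (CPM per kb of exon) of FGFR1 to FGFR4, with 1 bar per library. FGFR2 holds between 81.4% and 83.6% of every OMO bar, and FGFR1 between 40.7% and 44.1% of every OMO+DOX bar.

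The 13 feedback and target genes had a common direction. Of these, 12 were tested, and all 12 were higher with DOX at an adjusted p below 0.05 (38.5% of all genes were called higher), 7 of them at a log2FC above 1 (11.0% of all genes). The PEA3 ETS factors are transcription factors that ERK both induces and activates. ETV4 (ENSG00000175832.13, chr17:43527844-43579620) gave 4.63, 2.34, 3.38 and 3.90 CPM in OMO and 29.7, 24.3, 31.7 and 28.9 CPM in OMO+DOX libraries, a log2FC of 3.01 (standard error 0.16, edgeR, adjusted p = 7.23e-09). ETV5 (ENSG00000244405.8, chr3:186046308-186110318) gave 26.8, 17.3, 19.9 and 23.9 CPM and 76.0, 82.6, 79.7 and 78.6 CPM, a log2FC of 1.85 (standard error 0.11, edgeR, adjusted p = 2.42e-08). Neither overlapped between the groups. ETV1 missed the filter, with over 1 CPM before scaling in 3 libraries, and stood at 0.119 ± 0.0375 and 1.01 ± 0.0684 CPM, from 23 and 190 pooled counts, a ratio of 8.57 (exact 95% interval 5.55 to 13.9).

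Sprouty proteins block ERK activation downstream of receptors, and 3 of the 4 genes rose by a log2FC above 1, as did 11.0% of all genes tested. SPRY4 (ENSG00000187678.9, chr5:142310427-142326455) gave 5.69, 3.33, 3.35 and 4.33 CPM in OMO and 19.0, 20.4, 20.9 and 19.3 CPM in OMO+DOX libraries, a log2FC of 2.25 (standard error 0.14, edgeR, adjusted p = 3.56e-08). SPRY2 (ENSG00000136158.12, chr13:80335976-80340951) gave 19.2, 13.6, 15.3 and 16.7 CPM and 41.0, 39.0, 43.6 and 43.1 CPM, a log2FC of 1.36 (standard error 0.09, edgeR, adjusted p = 6.04e-08). SPRY1 gave 2.41, 2.34, 2.42 and 2.69 CPM and 4.87, 5.16, 6.08 and 5.35 CPM, a log2FC of 1.12 (standard error 0.10, edgeR, adjusted p = 7.44e-07). In each of the 3, every treated library was above every untreated one. SPRY3, a pseudoautosomal gene whose reads are divided equally between 2 entries, went from 2.14 ± 0.377 to 3.90 ± 0.435 CPM per entry, a log2FC of 0.86 (edgeR, adjusted p = 1.21e-04).

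Spred proteins bring the RAS inhibitor neurofibromin to the membrane. SPRED3 (ENSG00000188766.12, chr19:38388421-38399587) gave 3.78, 3.27, 3.56 and 3.81 CPM in OMO and 12.5, 12.1, 12.4 and 12.2 CPM in OMO+DOX libraries, a log2FC of 1.78 (standard error 0.07, edgeR, adjusted p = 7.26e-10). SPRED1 gave 33.9, 26.9, 25.3 and 29.6 CPM and 41.9, 43.6, 41.8 and 36.5 CPM, a log2FC of 0.50 (standard error 0.09, edgeR, adjusted p = 2.64e-04). Both were free of overlap, while SPRED2, the Spred gene with the highest level per kb of exon, was not. SPRED2 gave 98.0, 81.3, 74.9 and 89.7 CPM and 97.8, 100.8, 95.7 and 98.7 CPM, a log2FC of 0.19 (standard error 0.07, edgeR, adjusted p = 0.0313). Its call was lost without OMO replicate 2 (adjusted p = 0.0923) and without OMO+DOX replicate 1 (0.0582), 2 (0.0721) or 4 (0.0594).

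The dual-specificity phosphatases remove the activating phosphates of MAP kinases, and the cytoplasmic DUSP6 is specific for ERK. DUSP6 (ENSG00000139318.8, chr12:89347232-89353271, minus strand) gave 9.96, 7.28, 9.29 and 9.48 CPM in OMO and 40.6, 41.8, 47.4 and 41.8 CPM in OMO+DOX libraries, a log2FC of 2.25 (standard error 0.09, edgeR, adjusted p = 8.12e-10). The antisense entry AC024909.2 covers 40.5% of the DUSP6 exon bases and went from 0.446 ± 0.0655 to 1.95 ± 0.428 CPM (n = 4), and the strand setting of the counting is not given in the sources used here. DUSP4, a nuclear phosphatase, gave 22.8, 15.9, 18.7 and 19.4 CPM and 35.8, 38.4, 36.9 and 38.7 CPM, a log2FC of 0.96 (standard error 0.09, edgeR, adjusted p = 1.21e-06). For DUSP6 and DUSP4 all treated libraries were above all untreated ones. DUSP5, which anchors ERK in the nucleus, gave 10.0, 8.42, 11.3 and 10.1 CPM and 11.3, 11.5, 13.2 and 12.3 CPM, with OMO replicate 3 level with OMO+DOX replicate 1, and a log2FC of 0.28 (standard error 0.09, edgeR, adjusted p = 0.0138).

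**Figure D3:**
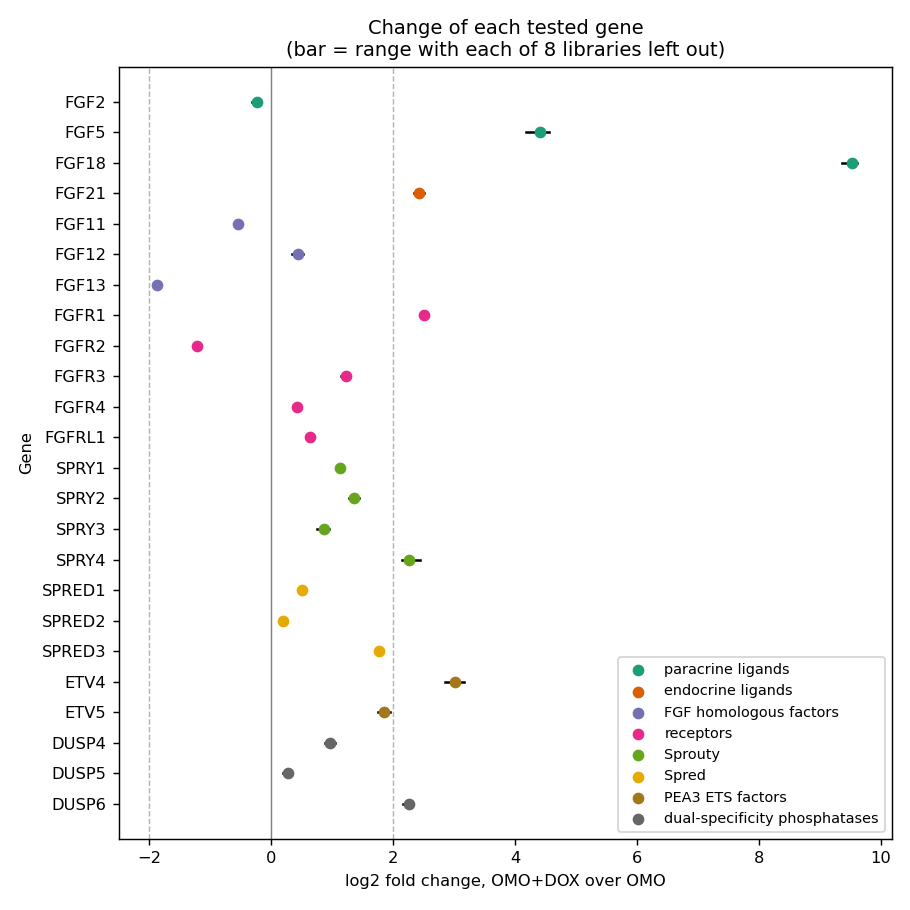
log2FC of OMO+DOX over OMO for the 24 tested members, coloured by role, with bars for the range over 8 fits that each leave out 1 library and dashed lines at an absolute log2FC of 2. The largest fall is that of FGF13 at -1.88, and all Sprouty, Spred, ETS and phosphatase genes lie above 0.

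The untreated libraries differed among themselves in the feedback genes. ETV4 in OMO replicate 2 was at 59.0% of the mean of the other OMO libraries, SPRY4 at 74.7%, ETV5 at 73.4% and DUSP6 at 76.0%. OMO replicate 2 was the lowest untreated library for 9 of the 12 tested feedback genes, while 18.2% of all genes tested were lowest there, and OMO replicate 1 was the highest for 9 of the 12, against 27.9% of all genes. This pattern was noticed after the values were seen, the 12 genes share the same libraries, and it was not tested. Without OMO replicate 2, the log2FC of ETV4 was 2.84, that of SPRY4 2.15 and that of DUSP6 2.16.

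**Figure D4:**
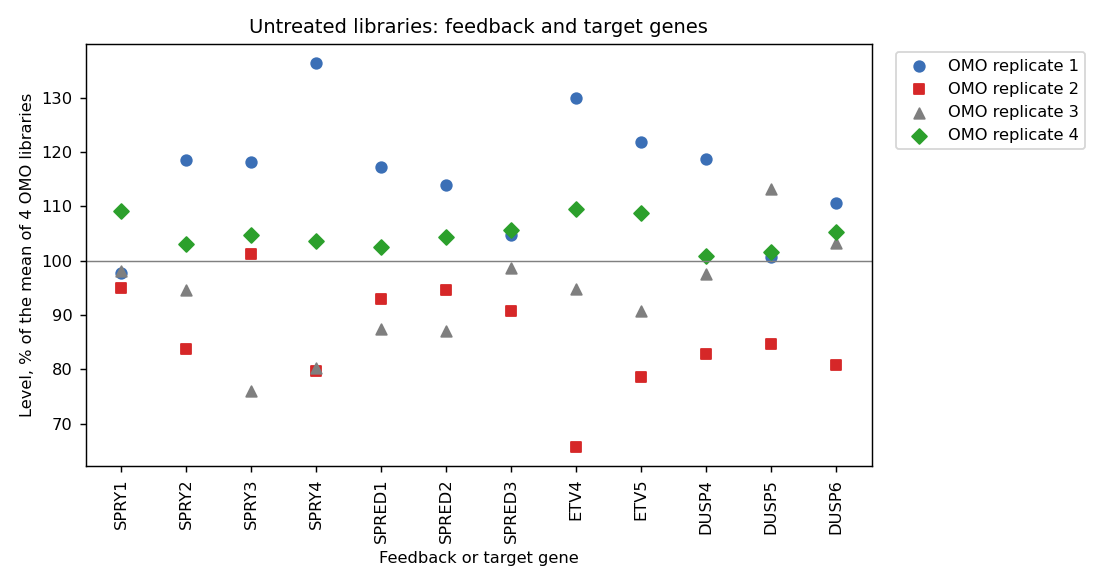
Level of the 12 tested feedback and target genes in each OMO library, as percent of the mean of the 4 OMO libraries. Replicate 2 (squares) is the lowest for 9 genes and replicate 1 (circles) the highest for 9.

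Genes around the pathway showed both directions, as did all genes tested, of which 38.5% were called higher and 38.1% lower at an adjusted p below 0.05. Of the RAS-ERK cascade list, 29 of 31 genes were tested, and 15 were higher and 11 lower at an adjusted p below 0.05, with a median log2FC of 0.24 beside 0.01 for all genes. The largest change was that of the adaptor gene SHC4, with a log2FC of 4.56, which stood at 0.806 ± 0.138 CPM in OMO and 19.0 ± 0.701 CPM in OMO+DOX libraries (SD, n = 4). SHC4 passed the filter through OMO+DOX libraries alone and had to differ. The ubiquitin ligase gene CBL (log2FC 1.51) and the RAS inhibitor gene NF1 (1.18) rose, whereas the docking protein gene GAB2 fell by 1.18 on the log2 scale. Of the genes known to be induced by ERK outside the members, 17 of 22 were tested, and 9 were higher and 5 lower, with a median of 0.26. EGR1, an immediate-early transcription factor, went from 381 ± 41.3 to 1567 ± 239.9 CPM, and EPHA4 (log2FC 2.75), EGR2 (1.99) and GDF15 (1.42) rose as well. The 5 lower genes were TRIB1 (log2FC -1.09), HMGA2 (-0.79), FOS (-0.74), ETS2 (-0.37) and ETS1 (-0.18). These 5 were named after their values were seen, as were CCND1 and FOSL1, which did not pass the filter. Among 6 tested phosphatases of the same family, 4 were higher and 2 lower, and DUSP8 had the largest change, with a log2FC of 2.59. The lower genes, DUSP1 (log2FC -0.85) and DUSP9 (-0.51), were named after their values were seen.

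Heparan sulfate proteoglycans, which present FGFs to their receptors, changed unevenly. Counts of higher and lower genes are at an adjusted p below 0.05 (edgeR), where 38.5% of all genes tested were higher and 38.1% lower. Of 11 tested proteoglycan and FGF-binding genes, 6 were higher and 3 lower, with a median log2FC of 0.21. The glypican gene GPC4 went from 56.8 ± 1.76 to 240 ± 2.73 CPM (SD, n = 4) and GPC2 from 13.3 ± 0.435 to 35.2 ± 1.55 CPM. GPC1 fell from 3.44 ± 0.618 to 1.09 ± 0.173 CPM, and FGFBP3, which encodes a carrier of FGFs, from 12.5 ± 0.739 to 3.97 ± 0.212 CPM. Of 17 tested heparan sulfate enzymes, 8 were higher and 4 lower, with a median of 0.16, and the 3-O-sulfotransferase genes HS3ST3B1 (log2FC 2.32) and HS3ST3A1 (1.77) changed most, the latter having passed the filter through OMO+DOX libraries alone. Of 8 membrane proteins that modulate FGF receptors, 4 were higher and 3 lower, with a median of 0.28. N-cadherin (CDH2), which stabilizes FGFR1 at the membrane, went from 50.9 ± 3.83 to 364 ± 8.96 CPM, and FLRT3 had a log2FC of 1.11. Of 5 tested sodium channel genes, whose products FGF11 to FGF14 bind, 2 were higher and 1 lower, with a median of 0.34. SCN8A went from 36.8 ± 6.15 to 78.1 ± 6.09 CPM. SCN3A, which passed the filter through OMO+DOX libraries alone and had to differ, stood at 0.575 ± 0.174 and 24.1 ± 1.91 CPM.

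**Figure D5:**
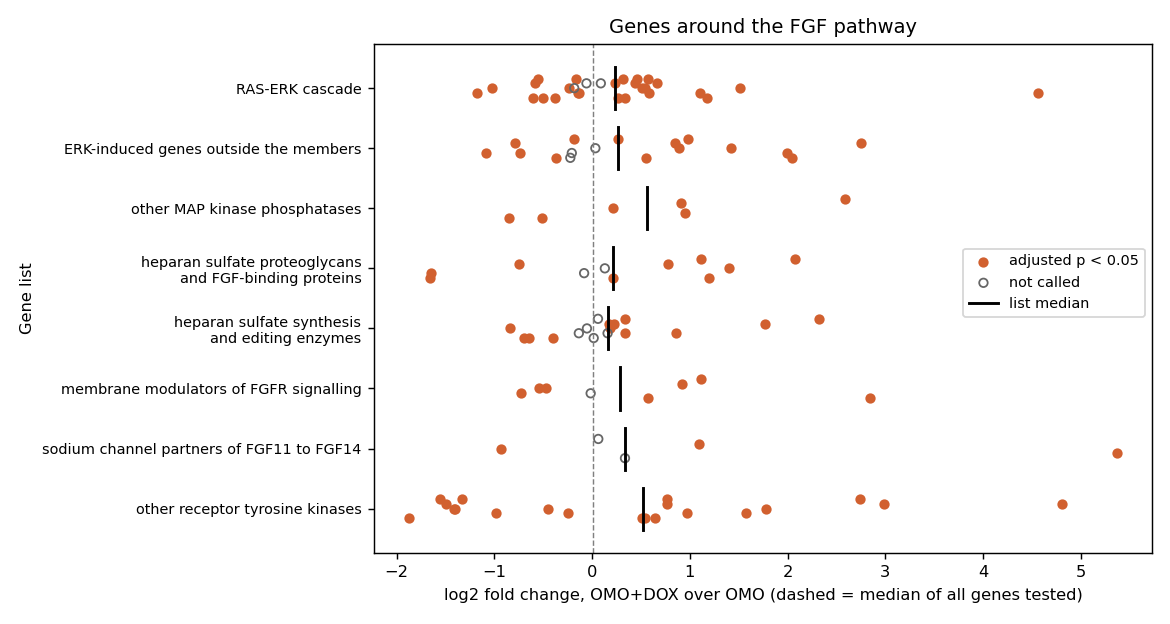
log2FC of the tested genes of 8 lists around the FGF pathway, with 1 point per gene, filled where the adjusted p is below 0.05, list medians as solid lines and the median of all genes tested (0.01) as a dashed line. List medians lie between 0.16 and 0.56, and each list holds genes that changed in both directions.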

How the data were processed

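RNA-Seq libraries of 4 OMO and 4 OMO+DOX cultures, described as independent biological replicates, were analysed. The authors deposited RSEM expected counts per gene, not normalized, made from STAR alignments to GRCh38 (GENCODE 32) after trimming by Trim Galore. Stranded kits were used, and the strand setting of RSEM is not given in the sources used here. Symbols, types, coordinates and exon lengths came from GENCODE 29 (same build), in which 96.5% of the entries were found. Expected counts were rounded and TMM-scaled, and genes above 1 CPM in 4 or more of the 8 libraries were tested with the quasi-likelihood test of edgeR 4.0.16 (R 4.3.3), with p-values adjusted by Benjamini-Hochberg over the genes tested. Expected counts that match several genes are divided by RSEM, so shared exons can move values. A standard error is the absolute log2FC over the square root of the F statistic. For genes with few counts, ratios of pooled counts have exact (Clopper-Pearson) 95% intervals, which like the floor of 3 counts cover counting error only. DESeq2 1.42.0, other scalings, filters and tests, a replicate block and each library left out were alternatives. Fits were checked on simulated data with few genes changed and low means raised. That check does not cover low counts or changes in most genes.

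Members with a value for every library are the 4 kinase receptors, those called at an absolute log2FC above 1, and those above 5 CPM in either group's mean. Of each list, up to 4 genes with the largest called change were named, besides those said to be named after their values were seen. Promoters shown are the 2 with the largest change among members at the study's thresholds. Of these 7 members, windows of 5 were read, and none of those held CACGTG. The members and lists were chosen with earlier results of these data known. The labels do not say whether equal replicate numbers pair the libraries, and the main fit did not pair them.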

Additional observations from a re-analysis of the deposited data

Results flagged for a closer look

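In 1 of 52 groups of 4 values (2.6 are expected by chance), a library stood apart from the other 3 by Dixon's test. FGFR1 in OMO+DOX replicate 2 was at 105.6 CPM, while the other OMO+DOX libraries lay between 120.2 and 121.6 CPM. Without this library the log2FC of FGFR1 was 2.54, in place of 2.50.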

How the results depend on the processing

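Over 17 alternative settings, 8 of which leave out 1 library, 397 of 406 refitted values of the tested members kept their direction and their side of an adjusted p of 0.05, 9 lost the call and none changed sign. The 9 concern FGF2, SPRED2 and FGF12. The number of members called at the study's thresholds was 7, and it fell to 4 with edgeR's glmTreat against a log2FC of 2, which asks for more than that fold change by construction. It was 5 where over 4 libraries had to exceed 1 CPM, 9 with filterByExpr and 10 with no filter on low counts, all higher with DOX. With a library left out, 7 members were called at those thresholds in each fit, between 14 and 15 at an absolute log2FC above 1 and between 22 and 24 at an adjusted p below 0.05. Among the lists, at an absolute log2FC above 1, the other phosphatases went from 1 to 3 genes with scaling to library size alone. The heparan sulfate enzymes went from 2 to 1 under the stricter filter and to 5 with no filter, the genes induced by ERK from 5 to 8 with no filter, and the sodium channels from 2 to 1 under the stricter filter and to between 1 and 2 with a library left out (1 without OMO replicate 3). The stricter filter also leaves FGF18 and FGF5 untested. Filters change which genes are tested, and for the other alternatives the cause was not tested. Same-numbered libraries correlated with a mean r of 0.114, from -0.24 to 0.314 over genes, and the replicate block changed no call of a member, with 7 called at the study's thresholds. Summing the overlapping entries of FGF11 and of SPRY3, chosen after seeing the data, left 7 called as well. The floor of 3 counts lay between 0.0581 and 0.0748 CPM over the libraries. Receptor shares moved with the longest transcript as length, while the order of FGFR1 and FGFR2 in each group stayed as it was.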

Other observations

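Receptor tyrosine kinases outside the FGF receptors changed in both directions. Of 24 such genes, 20 were tested, and 11 were higher and 9 lower with DOX at an adjusted p below 0.05 (edgeR), with a median log2FC of 0.52 beside 0.01 for all genes tested, of which 38.5% were higher and 38.1% lower. The neurotrophin receptor gene NTRK2 had the largest change, from 0.0693 ± 0.0607 to 1.95 ± 0.157 CPM (SD, n = 4), and the VEGF receptor gene KDR (log2FC 2.98) and ERBB4 (2.74) rose as well. NTRK2 and KDR passed the filter through OMO+DOX libraries alone and had to differ, and 9 genes were higher and 9 lower where over 4 libraries had to exceed 1 CPM. FLT1, which encodes another VEGF receptor, fell from 12.4 ± 0.863 to 3.39 ± 0.492 CPM.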
